A study of Mus musculus with 6 samples.

Results

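The homeostatic microglia genes P2ry12, Tmem119, Cx3cr1, Csf1r, Siglech, Aif1 and Selplg were followed across the zones of the mouse brain at 3 ages. They were taken by symbol, with earlier results of these data known, and all 7 were found among the 19465 genes of each of the 6 count matrices. Brain sections were measured by FFPE Visium, in which probes for each gene are captured on a slide of barcoded spots. A spot is a small region that can hold several cells of different types. All mice were untreated male C57BL/6J, 2 per age, at postnatal day 21 (P21), as adults (12 to 15 weeks in the sample names) and aged (28 months), with 1 coronal section per sample. P21 and adult sections were mounted directly on Visium v1 slides, whereas aged sections were transferred to Visium v2 slides with the CytAssist instrument and read with a changed probe design, per the study's methods. Age and slide version therefore cannot be told apart in any aged vs. adult difference of a whole section or zone.

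In the mm10 (GRCm38) annotation, P2ry12 lies at chr3:59216272-59262871 on the minus strand and Cx3cr1 at chr9:119901616-120069879 on the minus strand. Aif1 lies at chr17:35170991-35176068, minus strand, and Csf1r at chr18:61100598-61132149, plus strand. Siglech lies at chr7:55768178-55778925 on the plus strand. Tmem119 (chr5:113793729-113800516) and Selplg (chr5:113818536-113832644) lie close together on the minus strand of chromosome 5.

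Microglia are the resident macrophages of the brain. They enter it during embryonic life, depend on signals through the CSF1 receptor, and in the undisturbed brain keep fine, moving processes that survey the tissue. The genes described here are commonly used to recognise this resting state, and several of them are known to be lowered when microglia become reactive. Their products have different roles. Csf1r is the receptor for the survival factors CSF1 and IL-34. Cx3cr1 is the receptor for the neuronal chemokine fractalkine. P2ry12 senses ADP released by injured cells and directs the movement of microglial processes. Siglech encodes a surface lectin of the Siglec family that signals through the adaptor Tyrobp (DAP12). Tmem119 is a membrane protein widely used to tell microglia from other macrophages. Selplg encodes the selectin ligand PSGL-1, which leukocytes also carry. Aif1 encodes IBA1, a calcium-binding protein of the actin cytoskeleton and the usual histological stain for microglia.

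Promoter sequences were read from RefSeq on GRCm38.p6, from 250 bases before to 50 bases after each RefSeq start, for 4 of the 7 genes. These starts are not those of the gene coordinates above. The P2ry12 window thus lies outside the stated gene and the Cx3cr1 window wholly within it. They are shown because Aif1 and Cx3cr1 rose in aged fiber tracts while P2ry12 and Siglech did not pass the test there. Both strands were searched for GAGGAA, the core bound by PU.1, the transcription factor encoded by Spi1 on which microglia depend, and capitals mark its reverse complement TTCCTC where it was found.
Aif1 promoter (chr17:35176003-35176302, minus strand): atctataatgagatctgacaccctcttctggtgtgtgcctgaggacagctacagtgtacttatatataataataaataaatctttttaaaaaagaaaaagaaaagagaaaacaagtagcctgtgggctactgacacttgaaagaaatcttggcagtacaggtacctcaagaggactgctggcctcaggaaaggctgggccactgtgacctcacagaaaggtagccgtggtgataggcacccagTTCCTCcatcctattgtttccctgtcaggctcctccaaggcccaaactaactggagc
Cx3cr1 promoter (chr9:120068247-120068546, minus strand): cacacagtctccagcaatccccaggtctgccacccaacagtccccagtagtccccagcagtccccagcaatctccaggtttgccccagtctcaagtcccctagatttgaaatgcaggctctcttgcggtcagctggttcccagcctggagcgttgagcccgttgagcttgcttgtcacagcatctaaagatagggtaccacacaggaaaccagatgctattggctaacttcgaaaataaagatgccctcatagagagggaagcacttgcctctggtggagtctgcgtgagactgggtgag
P2ry12 promoter (chr3:59262936-59263235, minus strand): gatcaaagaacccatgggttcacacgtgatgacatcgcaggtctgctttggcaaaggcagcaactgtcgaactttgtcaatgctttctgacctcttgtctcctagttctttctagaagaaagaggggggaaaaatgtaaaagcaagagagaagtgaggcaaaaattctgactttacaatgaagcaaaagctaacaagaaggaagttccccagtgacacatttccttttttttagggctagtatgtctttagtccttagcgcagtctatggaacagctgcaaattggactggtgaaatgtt
Siglech promoter (chr7:55767934-55768233, plus strand): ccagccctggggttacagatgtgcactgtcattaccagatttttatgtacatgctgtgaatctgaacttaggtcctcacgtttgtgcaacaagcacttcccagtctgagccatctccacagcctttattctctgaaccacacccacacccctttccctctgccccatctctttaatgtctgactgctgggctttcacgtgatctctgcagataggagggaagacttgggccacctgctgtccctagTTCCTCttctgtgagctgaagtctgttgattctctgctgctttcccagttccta
The core was found once in Aif1 and once in Siglech, and its letters are not in the windows of P2ry12 and Cx3cr1. Of 32851 promoters of the same length, 9289 (28.3%) hold it on either strand. The match thus fell once among the genes that rose and once among those that did not pass the test, and a match describes the sequence only.

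After filtering, 20336 spots remained, with 12074.5 to 25535 median unique molecular identifiers (UMIs, counted probe molecules) per spot. Clustering without the microglia genes gave cortex (CTX, 4535 spots), hippocampus (HP, 1911), thalamus (TH, 3323), hypothalamus (HY, 3879), striatum (STR, 850), fiber tracts (FT, 1766), meninges (MEN, 1074) and 2998 spots left unnamed. FT held 227 to 295 spots in P21 and adult sections and 388 and 355 spots in aged sections. UMIs were summed per section or per section and zone, and are given as counts scaled to library size (CPM). Ages were compared with edgeR, and a gene was called at a Benjamini-Hochberg adjusted p under 0.05 over all genes tested and a fold change over 1.5. With 2 sections per age, p-values of the age tests rest on the spread between sections, pooled over the ages. In models with the section as a block they rest on the spread left among section-by-zone sums. Both comparisons use the same adult sections. In spots, fewer microglia and less RNA per microglial cell cannot be told apart.

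The genes varied together over the 36 section-by-zone sums, although not equally. The mean Pearson r of one gene with the other 6, on log2(CPM + 1), was highest for Cx3cr1 (0.79) and lowest for P2ry12 (0.49). The closest pair was Cx3cr1 and Selplg (r = 0.93). P2ry12 and Siglech also ran together (r = 0.86), while P2ry12 and Tmem119 did so least (r = 0.20). The sums share sections, depth and zones, so these values describe the pattern and carry no test. Among 11338 genes, the 10 most like the mean of the 7 were Apbb1ip (r = 0.95), Abi3 (0.93), Cd37 (0.92), Pld4 (0.92), Spi1 (0.91), Ikzf1 (0.90), S100a6 (0.90), Clic1, Pycard and Unc93b1 (each 0.89). Spi1 and Ikzf1, named out of these 10, encode transcription factors of microglia and other leukocytes. Not only microglia express the 10 genes, and which cells gave their UMIs was not tested.

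All 7 genes were higher in FT than in the mean of the other 5 zones in a fit over all ages, with the section as a block, compared with 12.6% of all genes called higher there. The log2 difference was 1.33 ± 0.14 (SE) for Aif1, 1.04 ± 0.11 for Cx3cr1, 0.99 ± 0.11 for Csf1r and 0.97 ± 0.08 for Selplg. It was smaller for P2ry12 (0.67 ± 0.07), Siglech (0.66 ± 0.10) and Tmem119 (0.66 ± 0.10), with edgeR adjusted p from 2.19e-11 to 2.02e-06 over the 7 genes. The Siglech difference fell under the fold threshold after thinning (0.57) and without aged replicate 1 (0.57). This fit gives 1 value over all ages, and for every gene the ratio of FT to the other zones was highest in aged sections. The order of the genes was only partly that of the younger ages. In adults the mean log2 ratio of FT to the other zones was highest for Aif1 (0.90). It was 0.69 for Selplg, 0.67 for Csf1r, 0.65 for Siglech and Cx3cr1, 0.50 for P2ry12 and 0.46 for Tmem119. At P21 it was highest for Selplg (0.69), with 0.49 for Cx3cr1, 0.45 for P2ry12 and Aif1, 0.35 for Csf1r and 0.32 for Tmem119. It was lowest for Siglech (0.13), and for Tmem119 it was below 0 in P21 replicate 2 (-0.04). At P21 these means were under a fold of 1.5 for all genes but Selplg, and in adults for P2ry12 and Tmem119. In the other 5 zones 0 of the 35 gene-by-zone tests were called by edgeR, where 14.5% of all such tests were. The fold threshold decided this for many tests. Most genes passed the adjusted p in CTX, HY and TH, all lower, such as P2ry12 in TH (-0.39, edgeR adjusted p = 2.23e-05). The share of all genes passing the adjusted p alone is not given here. The mean of the other zones includes FT, so high levels in FT make the remaining zones lower in this contrast. In adults the mean level in HY lay above those in HP, CTX and TH for all 7 genes. Selplg was also lower that way in HP (-0.21), and P2ry12 (0.30) and Selplg (0.24) were higher in STR. STR came next to FT for most genes, and P2ry12 in adults fell in the order FT (77.2 ± 3.05 CPM, SD, n = 2), STR (70.8 ± 3.61), HY (56.1 ± 0.26), HP (53.6 ± 2.05), CTX (46.5 ± 1.11) and TH (45.2 ± 4.22), with overlap between CTX and TH alone. In P21 sections FT did not stand clear of STR for P2ry12, Tmem119, Csf1r, Siglech or Aif1. MEN and the unnamed spots were in neither the fit nor these ratios. In adults the mean in MEN was above that in FT for all 7 genes, such as P2ry12 (112 against 77.2 CPM) and Csf1r (93.3 against 62.9 CPM). In aged sections Csf1r was lower in MEN (106 CPM) than in FT (147 CPM). The MEN values are plain CPM, not scaled like those of the 6 zones, and were not tested.

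**Figure D1:**
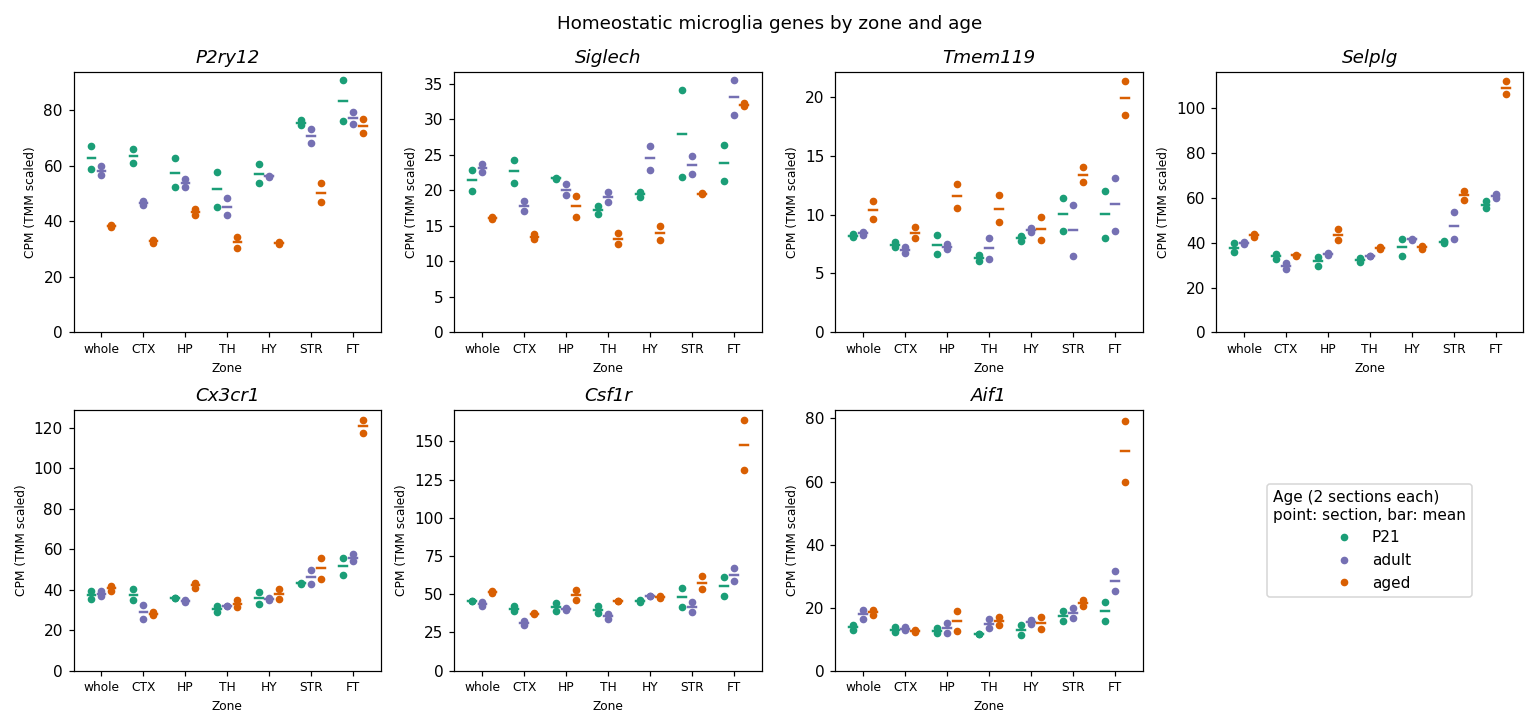
Level of each homeostatic microglia gene (CPM, linear axes from 0) in the whole section and in 6 zones; each point is 1 section, each bar the mean of 2 sections, and colours are ages. Cx3cr1, Csf1r, Aif1 and Selplg stand clear of both younger ages in aged FT, whereas P2ry12 and Siglech lie lowest in the aged whole section and HY.

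The comparison of aged with adult sections asks how the microglia genes differ late in life. In FT, 5 of the 7 genes were higher in aged sections and P2ry12 and Siglech were not, whereas 12.2% of all genes tested were called higher. The largest differences were those of Aif1, Csf1r and Cx3cr1. Csf1r was at 58.4 and 67.3 CPM in the adult sections and at 131.0 and 163.8 CPM in the aged sections. P21 sections, at 61.5 and 48.8 CPM, lay with the adults, and both aged sections were clear of all younger ones. The Csf1r difference was 1.23 ± 0.13 (log2, SE; edgeR adjusted p = 8.29e-07), or 2.34-fold. Aif1 was at 25.4 and 31.6 CPM in adult and 59.8 and 79.3 CPM in aged FT, again without overlap. Its difference was the largest of the 7 genes, at 1.28 ± 0.16 (edgeR adjusted p = 6.09e-06). Cx3cr1 was at 54.0 and 57.5 CPM in adult and 123.7 and 117.4 CPM in aged FT, a difference of 1.11 ± 0.11 (edgeR adjusted p = 3.99e-07). In each of these 3 genes both aged sections thus lay above both adult sections.

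Selplg and Tmem119 rose less. Selplg was at 61.8 and 59.9 CPM in adult and 106.5 and 112.1 CPM in aged FT. The sections of an age lay close together, and the difference was 0.85 ± 0.10 (edgeR adjusted p = 4.25e-06). Tmem119 had few UMIs, 21 to 109 per section in FT. It was at 8.62 and 13.1 CPM in adult and 18.5 and 21.3 CPM in aged FT (0.86 ± 0.22, edgeR adjusted p = 0.00435), and without adult replicate 1 the call was lost (0.60, adjusted p = 0.0697). Under the other alternatives run, the 5 calls in FT held.

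P2ry12 and Siglech did not differ in FT beyond the spread of the sections. P2ry12 was at 75.0 and 79.3 CPM in adult and 71.8 and 76.7 CPM in aged FT (-0.06 ± 0.11, edgeR adjusted p = 0.704). Siglech was at 35.5 and 30.6 CPM in adult and 31.8 and 32.3 CPM in aged FT (-0.04 ± 0.14, edgeR adjusted p = 0.83). In both, the ages overlapped. The summed level of the 7 genes in FT was 294 and 305 CPM in P21, 319 and 339 CPM in adult and 543 and 603 CPM in aged mice. Over the whole section the sum stayed between 218 and 235 CPM in all 6 sections.

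Outside FT the same pair was lower in aged sections in some zones, and under the main settings both were called in HY alone. In the whole section P2ry12 was at 58.8 and 66.9 CPM in P21, 56.5 and 59.8 CPM in adult and 37.8 and 38.7 CPM in aged mice. Both aged sections lay below every younger section, and P2ry12 was the only member called (-0.60 ± 0.08, edgeR adjusted p = 0.000337; 2.85% of all genes were called lower). That value sits just past the fold threshold, and it came to -0.58 when section sums were thinned to equal depth and to -0.56 without adult replicate 2. Siglech was at 22.5 and 23.7 CPM in adult and 16.2 and 16.0 CPM in aged whole sections (-0.52 ± 0.09, edgeR adjusted p = 0.00127), under the fold threshold. It was called in the whole section with edgeR's own filter on low counts alone (-0.63) and with no filter (-0.64). In HY both were called lower, against 4.22% of all genes. P2ry12 was at 56.3 and 56.0 CPM in adult and 32.4 and 31.9 CPM in aged HY (-0.80 ± 0.10, edgeR adjusted p = 0.000866). Siglech was at 22.9 and 26.2 CPM in adult and 15.0 and 13.04 CPM in aged HY (-0.82 ± 0.14, edgeR adjusted p = 0.00348). The ages did not overlap for either gene. P2ry12 also passed the adjusted p but not the fold in CTX (-0.50), STR (-0.49) and TH (-0.48), and Siglech did in TH (-0.53) and CTX (-0.40). Neither gene passed in HP (-0.30 and -0.17), nor Siglech in STR (-0.28). Under other settings more zones were called. With zones by marker score P2ry12 was called in CTX (-0.64) and Siglech in TH (-0.59) and STR (-0.61). With interior spots P2ry12 was called in STR (-0.76) and Siglech in TH (-0.59). Without aged replicate 2, P2ry12 in STR and Siglech in TH both came to -0.59.

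The other 5 genes were not called lower in any zone of aged sections. Tmem119 was at 7.52 and 7.04 CPM in adult and 10.5 and 12.6 CPM in aged HP (0.68 ± 0.20, edgeR adjusted p = 0.0229; 5.96% of all genes were called higher). This call was lost with DESeq2, after thinning, and without either adult section or aged replicate 2. Csf1r passed the adjusted p under the fold threshold in the whole section (0.24), TH (0.36), STR (0.48) and CTX (0.26), and Tmem119 did in the whole section (0.31) and TH (0.54). Without aged replicate 1, Tmem119 in TH was called (0.69), and without adult replicate 2, Csf1r in STR was called (0.59). Of 42 gene-by-zone tests, 6 were called higher and 2 lower in aged sections, against 7.87% and 6.61% of all such tests.

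**Figure D2:**
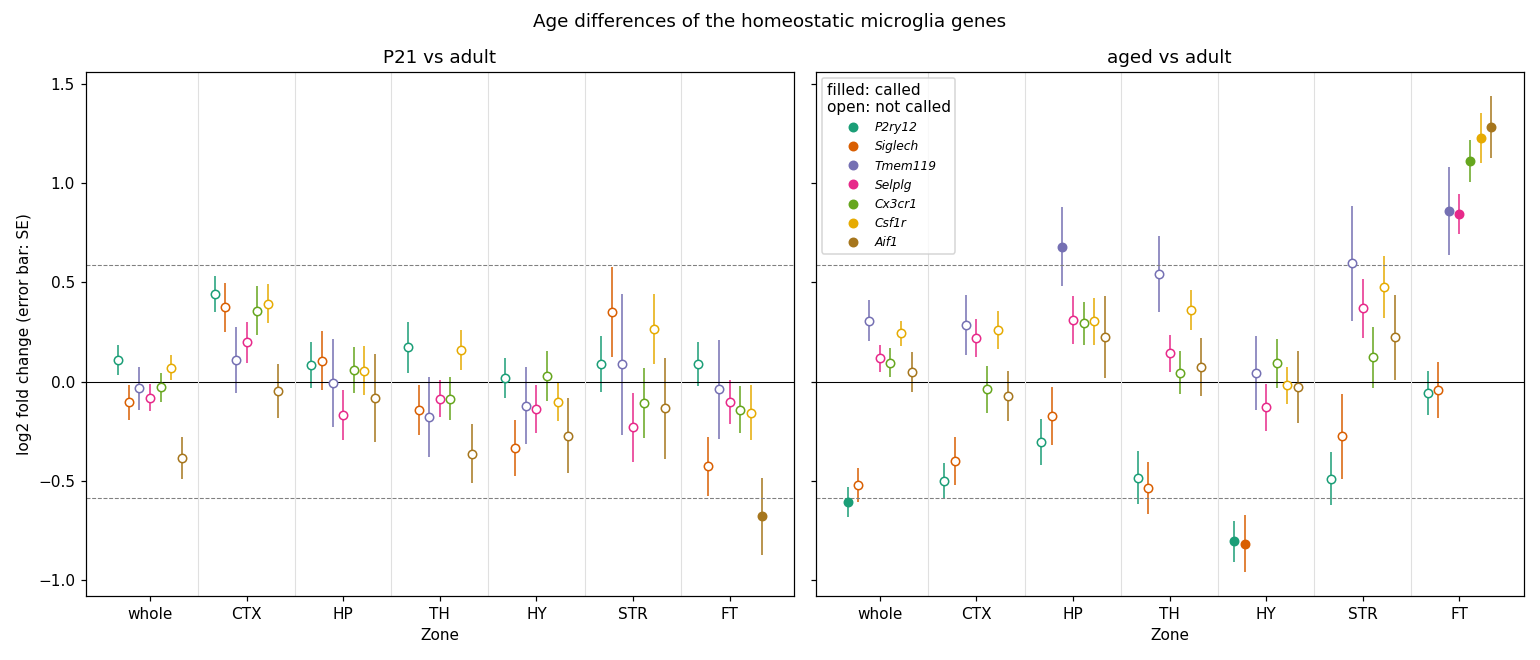
Log2 fold change (edgeR, error bars SE, 2 sections per age) of each gene in the whole section and in 6 zones, P21 vs. adult on the left and aged vs. adult on the right. Filled points were called, and dashed lines mark a fold change of 1.5. In aged FT 5 genes sit above the upper line, and P2ry12 and Siglech are the lowest 2 points in every zone.

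Whether the age difference of a gene varied between zones was tested with the section as a block, which takes out an effect that is equal in every zone of a section. Whether slide version and probe design act equally on all zones was not tested. The aged vs. adult difference varied between zones for 6 of the 7 genes, with edgeR adjusted p from 2.72e-06 (Cx3cr1) to 0.00748 (Siglech), and 43% of all genes did so. Tmem119 missed the threshold (adjusted p = 0.0555), which it passed with zones by marker score (0.00735) and without adult replicate 2 (0.0471). The Siglech result was lost without adult replicate 2 or aged replicate 2. In a contrast chosen once the data had been seen, the aged vs. adult difference in FT minus its mean in the other 5 zones was 1.22 ± 0.15 for Aif1, 1.03 ± 0.11 for Cx3cr1, 0.96 ± 0.12 for Csf1r and 0.68 ± 0.09 for Selplg. It was also above 0 for P2ry12 (0.48 ± 0.08) and Siglech (0.42 ± 0.14), with edgeR adjusted p at most 0.0217 for these 6 genes, as for 32% of all genes. The Siglech contrast no longer passed without adult replicate 2 (0.25, adjusted p = 0.328), aged replicate 1 (0.0836) or aged replicate 2 (0.0726). For Tmem119 it was 0.46 ± 0.20 (adjusted p = 0.0747), with 0.81 (0.00314) in zones by marker score, 0.80 (0.0204) without adult replicate 2 and 0.11 (0.795) without adult replicate 1. Over the 5 zones without FT, the aged vs. adult difference still varied for P2ry12, Selplg and Siglech, as for 26.6% of all genes. None of the 3 passed without adult replicate 1 (adjusted p = 0.207, 0.308 and 0.169) or adult replicate 2 (0.0713, 0.0501 and 0.327). P2ry12 was also lost with interior spots (0.131) and without aged replicate 2 (0.136), and Selplg without aged replicate 1 (0.0953). Siglech was also lost with plain CPM (0.0691), zones by marker score (0.243), interior spots (0.131), and without aged replicate 2 (0.338), P21 replicate 1 (0.0597) or P21 replicate 2 (0.0587), and Csf1r passed with zones by marker score (0.0219). The gap between FT and the other 5 zones was thus wider in aged sections for P2ry12 under every setting run, although P2ry12 was not called higher in aged FT itself.

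The same was seen section by section. The log2 ratio of the P2ry12 level in FT to its mean in the other 5 zones was 0.40 and 0.49 in P21, 0.50 and 0.50 in adult and 0.96 and 0.96 in aged mice. That of Aif1 was 0.29 and 0.62 in P21, 0.80 and 1.01 in adult and 2.02 and 2.18 in aged mice. For every gene both aged sections had a higher ratio than all 4 younger sections.

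**Figure D3:**
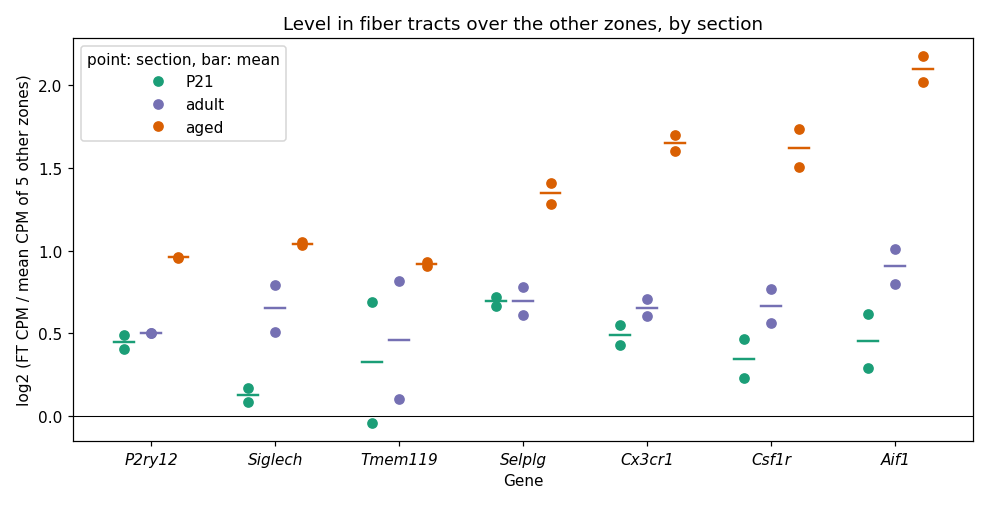
Log2 ratio of each gene's CPM in FT to its mean CPM in the other 5 zones, by section (points, n = 2 per age) with the mean as a bar. Aged sections lie above all younger sections for each gene, from about 0.92 (Tmem119, mean) to 2.10 (Aif1, mean), and P21 sections of Siglech lie at 0.17 and 0.08.

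The make-up of the 7 genes' UMIs differed with age. P2ry12 held 27.6% ± 1.23 (SD, n = 2) of them in whole P21 sections, 25.4% ± 0.33 in adults and 17.5% ± 0.21 in aged sections. In FT its share was 27.8% ± 2.81, 23.5% ± 0.11 and 12.97% ± 0.35. Csf1r went the other way, from 19.1% ± 1.07 in adult to 25.6% ± 2.15 in aged FT. The ratio of P2ry12 to Siglech stayed close between adult and aged sections. The log2 ratio of their UMIs was 1.36 and 1.75 in P21, 1.33 and 1.34 in adult and 1.22 and 1.28 in aged whole sections. In FT it was 1.08 and 1.37 in adult and 1.17 and 1.25 in aged sections. Both P21 sections lay above these in FT, at 1.52 and 2.09. Against the other 5 genes, the log2 ratio of P2ry12 was lower in aged than in adult whole sections by between -0.66 (Aif1) and -0.91 (Tmem119). Because each gene is read by its own probes, a changed probe set could move such a ratio, and this cannot be told apart from age.

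**Figure D4:**
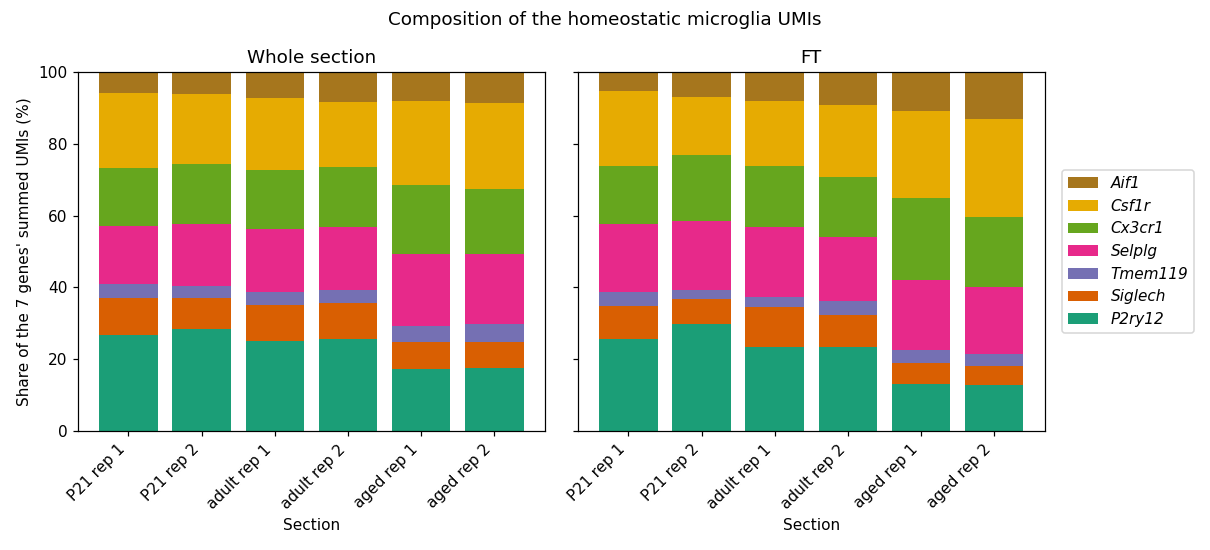
Share (%) of each gene in the summed UMIs of the 7 genes, by section, in the whole section (left) and FT (right). The P2ry12 and Siglech blocks are smaller in both aged sections than in the 4 younger ones, and the Csf1r and Aif1 blocks are larger in aged FT.

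The partners of these genes were uneven. Il34, a ligand of Csf1r made mainly by neurons, was at 59.3 and 61.8 CPM in adult and 31.0 and 35.6 CPM in aged FT, and fell (-0.86 ± 0.12, edgeR adjusted p = 2.68e-05) where Csf1r rose. Tyrobp, the signalling adaptor of Siglech and TREM2, was at 30.0 and 44.7 CPM in adult and 131 and 145 CPM in aged FT (1.88 ± 0.14, edgeR adjusted p = 2.79e-08), where Siglech itself was not called. The ligand gene Csf1 and the selectin genes Selp and Sele did not pass the filter on low counts, and Cx3cl1 was not analysed here.

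Further microglia genes were read as lists. Of 18 other homeostatic genes tested in aged FT, 12 were called higher and none lower, with a median log2 difference of 0.75 against 0.00 over all genes and 0.86 over the 7 genes. Of all genes tested in aged FT, 12.2% were called higher and 12% lower. Mertk, a receptor gene for the uptake of dying cells, differed by 1.11 ± 0.12 there (edgeR adjusted p = 1.6e-06). In the other 5 zones, 2 to 5 genes of this list were called higher and 0 to 2 lower, where 7% and 5.53% of all gene-by-zone tests were. P2ry13, which encodes another ADP receptor and lies in the P2Y cluster with P2ry12, was called lower in CTX (-0.92), HY (-0.81) and TH (-0.59) and not called in FT (0.48). Of 17 tested genes shared by microglia and macrophages, 17 were called higher in aged FT (median 2.01), Trem2 by 2.78 ± 0.13. Of 12 tested genes of reactive microglia all 12 were (median 1.81). The medians of these last lists were above that of the 7 genes, of which 5 rose. The reactive list held 20 genes, 19 of them in the matrices, and those not tested did not pass the filter. A gene could pass by detection at either age compared, which can favour genes that are high in aged FT. For P21 vs. adult, 11 genes of the reactive list were tested in FT. Among 9 microglia transcription factors, 6 were called higher and 1 lower in aged FT, where 12% of all genes were called lower. Spi1 differed by 1.71 ± 0.20 and Cebpa by 1.04 to 2.70 over the 6 zones, whereas Mef2c, also strongly expressed in neurons, fell in FT (-1.84), HY (-1.41) and HP (-0.96). Of 13 genes of CSF1R and TGF-beta signalling, 6 were called higher and 2 lower in aged FT, and the latter count is near the 12% of all genes. The receptor genes Tgfbr1 and Tgfbr2, named after their values were seen, were among the former, and Il34 and the signal transducer gene Smad3 were the latter.

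Marker sums of other cells were also higher in aged FT, but single genes carried some of these sums and not all markers rose. The summed level of 9 border macrophage markers in FT was 25.0 to 32.4 CPM in the younger sections against 60.5 and 67.5 CPM in aged ones, and all 9 were found at some age. Stab1 had the most UMIs of them in aged FT (162 and 194) and was called higher there (1.03). The defining markers Mrc1 (12 to 45 UMIs per section) and Pf4 (9 to 25 UMIs) were few in FT at every age. The other markers of this list had more UMIs in both aged FT sections than in any younger one. F13a1 had 4 to 17 UMIs in younger and 29 and 37 in aged FT, and Ms4a7 had 3 to 9 and then 29 and 37. Monocyte and neutrophil markers summed to 0 to 4.70 CPM in younger and 5.36 and 7.78 CPM in aged FT. Lymphocyte markers, relevant to Selplg, summed to 8.34 to 12.3 CPM in younger and 18.5 and 27.4 CPM in aged FT, and the T cell receptor component Cd3e had 0 UMIs in the 4 younger and 21 and 32 UMIs in the aged sections. Trbc2, the one lymphocyte marker that passed the filter in FT, went the other way, with 51 and 42 UMIs in adult and 21 and 35 UMIs in aged FT, and was called lower there (-0.74 ± 0.28, edgeR adjusted p = 0.0372), in HP (-3.17) and in STR (-2.40). Trbc2 was not particular to FT either, with a mean of 51.4 CPM in adult CTX against 9.35 CPM in adult FT. Cd3e had 12 and 7 UMIs in the whole adult sections. Which cells gave the Trbc2 UMIs was not tested. Plasmacytoid dendritic markers, relevant to Siglech, summed to 30.9 to 54.4 CPM in younger and 85.6 and 91.1 CPM in aged FT. Most of that sum was Cox6a2 (368 and 331 aged UMIs), while Ccr9 had 0 to 4 UMIs per section. Tlr7 had 7 to 20 UMIs in younger and 41 and 52 in aged FT, and Tlr9 had 9 to 26 and then 41 and 43. Klk1 had 0 to 4 UMIs in younger and 0 and 1 in aged FT. Cox6a2 was not particular to FT, with a mean of 118 CPM in adult TH against 25.4 CPM in adult FT. The part of these cells in the result was not tested.

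The comparison of P21 with adult sections asks how the genes differ before maturity. In the whole section 0 of the 7 genes were called by edgeR, against 5.2% of all genes; 1 had an unadjusted p under 0.05, and DESeq2 called 0. That 1 gene was Aif1, at 13.04 and 14.4 CPM at P21 and 16.3 and 19.4 CPM in adults (-0.38 ± 0.11, edgeR adjusted p = 0.0255). In FT Aif1 was at 15.9 and 21.7 CPM at P21 and 25.4 and 31.6 CPM in adults, and this was the only call in 42 gene-by-zone tests, of which 6.06% were called over all genes (-0.68 ± 0.19, edgeR adjusted p = 0.0221; 4.22% of all genes were called lower). The ages did not overlap, but the call was lost with DESeq2 (adjusted p = 0.0831), after thinning, with zones set by marker score, with interior spots, and without adult replicate 2 or P21 replicate 1. In CTX, 3 genes were higher at P21 with an adjusted p under 0.05 and a fold below 1.5, namely P2ry12 (0.44), Csf1r (0.39) and Siglech (0.37). P2ry12 was at 60.9 and 66.0 CPM in P21 and 45.7 and 47.3 CPM in adult CTX, without overlap.

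The P21 vs. adult difference varied between zones for P2ry12 (edgeR adjusted p = 0.0351) and Siglech (0.0108), as for 10.6% of all genes. Siglech was at 24.3 and 21.1 CPM in P21 and 17.1 and 18.5 CPM in adult CTX, but at 26.4 and 21.3 CPM in P21 and 35.5 and 30.6 CPM in adult FT. It was thus above adults in one zone and below them in the other. Both results were lost without any one of the P21 or adult sections. The P2ry12 result was also lost with no filter (adjusted p = 0.0752), zones by marker score (0.168) and interior spots (0.16), and the Siglech result after thinning (0.0587). Csf1r passed instead with zones by marker score (0.0300) and interior spots (0.0423), and Csf1r and Cx3cr1 passed without either aged section (0.0316 to 0.0394). Over the 5 zones without FT both P2ry12 and Siglech passed (6.69% of all genes), but neither did without any one of the P21 or adult sections, and P2ry12 did not with zones by marker score (0.153) or interior spots (0.138). Further, the FT contrast passed for 0 of the 7 genes with edgeR (4.42% of all genes). Hemoglobin genes summed to 1284 and 2266 CPM in P21 sections and to 166 to 320 CPM in adults, and the part of this difference was not tested.

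The lists moved in different zones at P21. In FT, 4 of 17 genes shared by microglia and macrophages were called lower, as was Aif1, against 4.22% of all genes. These were Ctss, Fcer1g, Itgb2 and Tyrobp, of which Tyrobp fell by 0.65 ± 0.17 (log2, edgeR adjusted p = 0.0141), and none was called higher. Of the 18 homeostatic genes tested in CTX (median 0.48), 8 were called higher at P21, against 3.66% of all genes, among them Crybb1 (1.13 ± 0.18), a crystallin gene known from microglia, and none lower. Sparc, a matrix protein gene also expressed by other cells, was called higher at P21 in all 6 zones (0.82 to 1.54), as was the tetraspanin gene Cd9 (0.76 to 1.07). Bhlhe41, a transcription factor gene of microglia and other cells, was called lower in 4 zones at P21, with -0.86 ± 0.10 in CTX.

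Spots with UMIs of reactive microglia genes were set against the rest of the same zone. In FT, 153 of 388 spots (39.4%) and 157 of 355 spots (44.2%) of the aged sections held at least 1 UMI of Itgax or Cst7, against 5 to 14 spots (2.0% to 4.75%) in younger sections. In CTX the share was 3.37% and 5.51% in aged and at most 0.94% in younger sections. After thinning each spot to 5000 UMIs, 76 and 72 aged FT spots and 0 to 5 spots per younger section held one. In aged FT, spots with such UMIs had higher levels of 7 and 6 of the 7 genes than the other spots. These counts were 7 and 4 with interior spots, where the lowest log2 ratio was -0.91 in aged replicate 2. They were 5 and 6 both at 2 or more UMIs and after thinning. Over all 6 sections, however, 0 of the 7 genes were higher in every section, and the smallest of 14 two-sided exact sign-flip permutation p was 0.0625 (Csf1r in FT, mean log2 ratio 0.42, higher in 5 of 6 sections; adjusted p = 0.656), where 6 sections allow 0.03125 at the lowest. The mean log2 ratio of P2ry12 in FT was -0.03 ± 0.30 (SD, n = 6). With 14 tests the lowest adjusted p these sections allow is 0.0625, so no gene could pass. In the aged FT sections, the only ones with over 100 such spots, the log2 ratio of P2ry12 was 0.37 and 0.05.

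The genes were also more patterned in space in aged sections, by the deposited Moran's I (a score near 0 for a random layout over the spots and higher where neighbours are alike). Csf1r scored 0.0159 to 0.0313 in the 4 younger sections and 0.172 and 0.228 in the aged sections. P2ry12 scored 0.0288 to 0.0449 and then 0.105 and 0.124, and Tmem119 at most 0.0132 and then 0.0486 and 0.0677. Every one of the 7 genes scored higher in both aged sections than in all younger ones. The median score of genes with UMI numbers within 1.5 times that of Csf1r was also higher in aged sections, at 0.0419 and 0.0539 against 0.0167 to 0.0252 in younger ones. Among those genes Csf1r stood at percentiles 47.0 to 68.4 in younger and 82.7 and 85.7 in aged sections. Siglech, against genes near its own UMI number, stood at percentiles 46.6 to 65.5 in younger and 66.0 and 66.6 in aged sections.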

How the data were processed

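The deposited counts are unnormalized UMIs per gene and spot. Per the file headers they come from Space Ranger 2.0.0 (P21, adult) and 3.1.1 (aged), on mm10, while the submitters' processing notes name Space Ranger 2.1.0 and Seurat 5.1.0. The deposited spatial enrichment tables hold a Moran's I score, used here, and its p-value and a scaled mean signal, which were not used. The 7 genes, the gene lists and the tests were chosen with earlier results of these data known.

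Spots under 250 genes or 500 UMIs were removed (1 to 4 per section). Spots were clustered (leidenalg 0.10.2, resolution 0.3, 13 clusters) without 135 genes of the lists, and clusters were named from marker panels; 84.6% of spots had the same zone by marker score. No (0) aged barcode was shared with P21 or adult slides. UMIs summed per section and zone were tested with edgeR 4.0.16 (TMM, quasi-likelihood, R 4.3.3). Genes tested were kept by edgeR's own filter on low counts and found in at least 10% of all spots. For the age tests they were also found in over 10% of spots of a zone at either age compared. Alternatives were DESeq2 1.42.0, other scalings, filters, thinning, zones by marker score, interior spots, a replicate block and leaving out each section. Scripts were tested on simulated data. The named genes were all 7, their ligands and partners, list genes called in at least 3 of 6 zones, and the 10 genes most like the 7. Some genes that this rule names are not reported here. Total UMIs per section were 42422997 to 106783660.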

Additional observations from a re-analysis of the deposited data

Results flagged for a closer look

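For 8 results the age difference of a gene varied between the 6 zones, by the edgeR interaction test with the section as a block. In aged vs. adult sections the adjusted p was 2.72e-06 for Cx3cr1, 5.71e-06 for Csf1r, 8.46e-06 for Selplg, 1.13e-05 for Aif1, 6.65e-05 for P2ry12 and 0.00748 for Siglech, and 43% of all genes passed. In P21 vs. adult sections it was 0.0351 for P2ry12 and 0.0108 for Siglech, and 10.6% of all genes passed. When FT was left out, a setting added after the data were seen, P2ry12 (0.00778), Selplg (0.0219) and Siglech (0.046) still passed in aged vs. adult sections (26.6% of all genes), and P2ry12 (0.0333) and Siglech (0.0348) in P21 vs. adult sections (6.69% of all genes). None of these 5 passes held without adult replicate 1 or without adult replicate 2. With interior spots P2ry12 in aged sections (0.131) and Siglech (0.131) did not pass, and Siglech did not with plain CPM (0.0691) or zones by marker score (0.243). For Aif1, Cx3cr1 and Csf1r the aged difference did not pass over the 5 zones without FT (adjusted p = 0.625, 0.381 and 0.124).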

How the results depend on the processing

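No result changed direction past its threshold under any alternative run. Without the fold threshold, the number of calls was 1 of 7 (whole section) and 4 of 42 (zones) in P21 vs. adult, 4 of 7 and 17 of 42 in aged vs. adult, and 28 for zone levels. The share of all genes passing without the fold threshold is not given. Whether these counts exceed that share therefore cannot be told. The single P21 vs. adult zone call became 0 under DESeq2, interior spots, thinning and zones by marker score. Whole-section calls in aged vs. adult became 2 (P2ry12 and Siglech) under filterByExpr only and no filter, and 0 after thinning. The P21 vs. adult interaction became 1 gene with no filter and after thinning, and with zones by marker score and interior spots it was 2 genes with Csf1r in place of P2ry12, while the aged vs. adult interaction 3 genes without FT. The FT contrast at P21 became 1 with plain CPM. For spots with Itgax or Cst7, genes higher in all sections became 4 in FT at 2 or more UMIs (3 sections), 1 in FT with interior spots, and 4 in CTX at 2 or more UMIs (2 sections). Leaving out each section in turn gave 0 to 1 zone calls for P21 and 6 to 9 for aged, 6 to 7 zone levels, 0 to 0 whole-section calls for P21 and 0 to 1 for aged, 0 to 4 interactions for P21 and 5 to 6 for aged, 0 to 1 FT contrasts for P21 and 5 to 6 for aged, and 0 to 2 genes in FT and 0 to 1 in CTX for the spot split. Of single age differences, 1597 values kept their side of the threshold, 27 passed it newly and 14 no longer passed. Replicate numbers did not pair the sections, as correlations of replicate deviations over 11338 genes were 0.152 (adult and P21), -0.412 (adult and aged) and -0.138 (P21 and aged). With the replicate block, calls of P21 vs. adult were 0 (whole section) and 1 (zones) and those of aged mice 1 and 8, as without it. Depth limits Tmem119 most, with 12 to 324 UMIs per zone and section.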

Other observations

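Spots outside the 6 tested zones also held these genes. In MEN, P2ry12 was at 93.5 and 112.9 CPM at P21, 99.2 and 125.0 CPM in adults and 60.2 and 92.8 CPM in aged sections, and Csf1r at 79.5 to 97.4 CPM in younger and 91.9 and 120.0 CPM in aged sections. Border macrophage markers summed to 126 to 233 CPM in younger and 212 and 307 CPM in aged MEN. Monocyte and neutrophil markers summed to 106 CPM in MEN of aged replicate 2, against 12.8 CPM in aged replicate 1 and at most 9.19 CPM in younger sections.

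In the largest group of spots left unnamed, led by Ccn3, Nptxr and Lmo3, P2ry12 was at 60.3 to 68.1 CPM in younger and 32.7 and 33.6 CPM in aged sections, and Siglech at 19.1 to 26.1 CPM and 13.8 and 13.3 CPM. Another unnamed group, led by Thbs4, Ttr and Enpp2, had Csf1r at 52.7 to 55.6 CPM in younger and 98.5 and 124.5 CPM in aged sections. No test was run on these spots.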
